A study of Homo sapiens with 12 samples.

Results

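Creatine kinases and the enzymes of arginine metabolism were followed by 10 genes, CKMT1A, CKMT1B, CKB, GATM, GAMT, ARG2, ASS1, ASL, ODC1 and SAT1, chosen by symbol from the 18792 rows analysed, and all 10 were found and passed the filter on low signal. The series compared RNA of 3 human lines established from intrahepatic cholangiocarcinoma (ICC), named HuH-28, RBE and SSP-25, to learn which transcripts change when the kinase LKB1, the product of STK11, is depleted. Each line was transfected with an siRNA against LKB1 or a scrambled control siRNA and harvested 48 h later, with 2 libraries in each of the 6 groups. HuH-28 was grown in MEM and the other lines in RPMI1640, so the line and its medium cannot be told apart in comparisons of levels. The comparisons made were LKB1 siRNA with control siRNA within each line, and the lines with each other under control siRNA.

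Creatine is built from arginine and glycine and then methylated, and creatine kinases move phosphate between ATP and creatine so that energy can be stored near the place of use. Arginine is also the substrate of arginase, which releases urea and ornithine, and ornithine is the starting point of the polyamines putrescine, spermidine and spermine. Citrulline can be turned back into arginine by argininosuccinate synthase and argininosuccinate lyase, which belong to the urea cycle in hepatocytes and serve arginine supply in most other cells.

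Values are the deposited signal, which is reads per kilobase of transcript brought by the authors to a common scale, and so comparable between genes and libraries. Each library summed to between 9909644 and 11726703, and the number of reads behind a value is unknown. Changes are differences of log2(signal + 0.5) between siRNAs, called log2 fold changes here, and they understate the change of low genes. They were tested with limma over 16146 genes, with adjusted p from the Benjamini-Hochberg method, and a call means an adjusted p under 0.05. The labels do not say whether the libraries of a group came from separate cultures. A heat map legend in the paper numbers the samples by a first and a second test, without saying what was repeated. The p-values therefore measure the spread between these libraries, which may be technical. The fit shares a single estimate of this spread per gene over the lines. The median absolute log2 difference between libraries of a group was 0.13 to 0.139 in HuH-28 and 0.065 to 0.0727 in the other lines. The p-values of HuH-28 may therefore be too small. In RNA from whole cultures, fewer cells of a kind and less RNA per cell cannot be told apart.

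STK11 was lower with LKB1 siRNA in every line, with log2 fold changes of -1.59 in HuH-28, -2.77 in SSP-25 and -1.68 in RBE. The lines were also checked against cell type markers. The biliary keratin KRT19 had a signal of 9.86 to 17.3 and the epithelial surface protein EPCAM of 0.026 to 1.31 in HuH-28. The stromal genes DCN, LUM and COL1A1 had at least 1642 there. These levels go against the label of a cholangiocarcinoma line, but the paper reports that DNA fingerprinting was used to check the identity of the lines. The other biliary markers were present in HuH-28, with KRT7 at 2406 to 3020, KRT8 at 2499 to 3968, KRT18 at 4272 to 6553 and SOX9 at 188 to 246. RBE had KRT19 at 9489 or more and EPCAM at 296 or more, and SSP-25 had both together with COL1A1 at 6538 or more. The stromal genes DCN, at 0.357 or less, and LUM, at 15.0 to 29.5, were far lower in SSP-25 than in HuH-28. ALB was at 1.34 or less and CD3E at 0 in all 12 libraries. The summed signal of the 8 stromal and leukocyte markers, mostly COL1A1, was 21234 to 22221 with LKB1 siRNA and 18031 to 18455 with control siRNA in HuH-28, 78.9 to 81.9 and 63.0 to 63.7 in RBE, and 10998 to 11396 and 6585 to 6995 in SSP-25. That of the 6 biliary markers was 12887 to 13632 with LKB1 siRNA and 9457 to 10345 with control siRNA in HuH-28, 38411 to 38900 and 46841 to 50331 in RBE, and 20360 to 21272 and 15034 to 15306 in SSP-25. That of the 5 hepatocyte markers, mostly SERPINA1 in HuH-28 and RBE, was 141 to 193 with LKB1 siRNA and 149 to 178 with control siRNA in HuH-28, 1557 to 1569 and 1123 to 1262 in RBE, and 2.84 to 3.30 and 3.55 to 4.94 in SSP-25. Apart from the hepatocyte markers in HuH-28, these sums moved with the siRNA in each line, and their part in the results below was not tested.

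The pair CKMT1A and CKMT1B needs care before any value is read, because the genes encode the same mitochondrial creatine kinase and are close to identical. In GENCODE v29 on GRCh38, CKMT1B spans 43593054 to 43604901 on the forward strand of chromosome 15, and CKMT1A spans 43692886 to 43699222 on the same strand, with 87984 bases between them. Their coding parts are 1251 bases each and differ at 2 positions, both at the third base of a codon, an identity of 99.8%. Counted from 1 at the first coding base, the differences from CKMT1A to CKMT1B are G1056A and C1086T. The coding sequence around each is printed below 5′ to 3′, because these are the only coding bases by which a read could be given to one copy, and the capital marks the differing base.
CKMT1A (chr15:43698671-43698699, forward, GRCh38): ctaagactccaaaaGcgtggtactggagg
CKMT1B (chr15:43598857-43598885, forward, GRCh38): ctaagactccaaaaAcgtggtactggagg
CKMT1A (chr15:43698701-43698729, forward, GRCh38): gtggacactgctgcCacaggcggtgtctt
CKMT1B (chr15:43598887-43598915, forward, GRCh38): gtggacactgctgcTacaggcggtgtctt

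With reads of 40 bases, the length given in the methods, 83.2% of the 40-base stretches of the longest coding CKMT1A transcript also occur in CKMT1B, and 91.4% of those of CKMT1B also occur in CKMT1A. CKMT1A took between 47.4% and 66.5% of the summed signal of the pair in the 12 libraries, and in the second LKB1 siRNA library and the second control siRNA library of SSP-25 the values of the copies were equal to within 0.00001 of signal. No source used here says how shared reads were assigned, so the split between the copies is uncertain and their sum is also given. If shared reads were counted for both copies, the sum overstates the level of the pair. By contrast, no 40-base stretch of CKB, ODC1 or SAT1 is shared with another annotated gene.

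CKMT1A and CKMT1B rose with LKB1 siRNA in every line, and no other gene of the 10 changed by more than 1 on the log2 scale. CKMT1A had a signal of 49.8 and 50.02 with LKB1 siRNA in HuH-28, against 16.6 and 16.7 with control siRNA. In RBE its values were 154 and 172 with LKB1 siRNA and 51.0 and 59.2 with control siRNA, and in SSP-25 they were 9.59 and 7.23 with LKB1 siRNA and 2.39 and 1.69 with control siRNA. Both knockdown libraries thus stood above both control libraries in each line, with no overlap, although the level itself differed widely between the lines. The log2 fold changes of CKMT1A were 1.56 (95% interval 1.14 to 1.97) in HuH-28, 1.81 (1.40 to 2.23) in SSP-25 and 1.56 (1.14 to 1.98) in RBE, which are 2.94-, 3.51- and 2.95-fold, and the adjusted p (limma) was 0.000235, 4.23e-05 and 0.000113 in the same order.

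CKMT1B was at 52.5 and 53.7 with LKB1 siRNA and 17.2 and 18.5 with control siRNA in HuH-28. It was at 145 and 165 with LKB1 siRNA and 44.0 and 55.7 with control siRNA in RBE, and at 8.23 and 7.23 with LKB1 siRNA and 1.20 and 1.69 with control siRNA in SSP-25. Again no libraries overlapped within a line, and the log2 fold changes of HuH-28, RBE and SSP-25 were 1.55, 1.64 and 2.09 (SE 0.18 each). Summed as 1 gene, the pair had a signal of 102 and 104 with LKB1 siRNA and 33.8 and 35.2 with control siRNA in HuH-28, 299.6 and 337 with LKB1 siRNA and 94.97 and 115 with control siRNA in RBE, and 17.8 and 14.5 with LKB1 siRNA and 3.59 and 3.38 with control siRNA in SSP-25. The log2 fold change of the sum was 1.57 in HuH-28, 2.06 in SSP-25 and 1.60 in RBE, with a mean of 1.74 (adjusted p = 8.94e-08, limma). In SSP-25 the size depends on the pseudocount because the control signal was low, and with 10 in place of 0.5 the log2 fold changes there were 0.61 for CKMT1A and 0.63 for CKMT1B, still past the threshold.

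**Figure D1:**
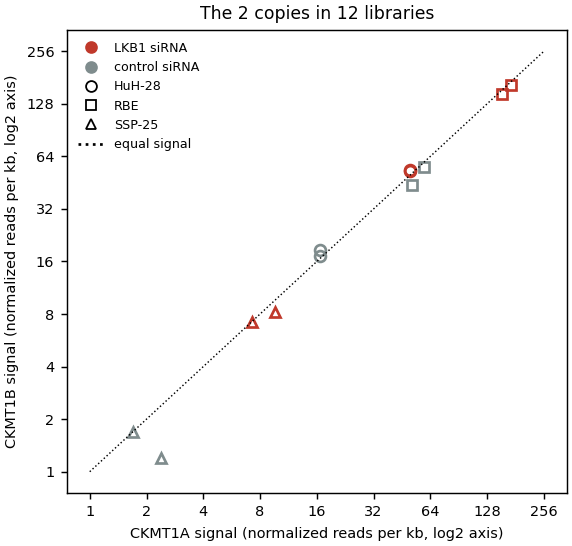
Signal of CKMT1A (x axis) and CKMT1B (y axis), both as normalized reads per kb on log2 axes, with 1 symbol per library, colour for the siRNA and shape for the line; the dotted line marks equal signal. All 12 libraries lie near that line, RBE highest and SSP-25 lowest, and within each line the LKB1 siRNA libraries lie above the control siRNA libraries on both axes.

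CKB, the cytosolic brain-type creatine kinase, is a separate gene on the reverse strand of chromosome 14 (103519659 to 103523111), and its coding part matches that of CKMT1A at 61.0% of aligned bases. CKB rose in every line, with smaller log2 fold changes than the mitochondrial pair. Its signal was 319 and 322 with LKB1 siRNA and 252 and 230 with control siRNA in HuH-28. In RBE it was 62.6 and 52.4 with LKB1 siRNA and 43.9 and 39.7 with control siRNA, and in SSP-25 121 and 125 with LKB1 siRNA and 76.7 and 73.2 with control siRNA. No libraries overlapped within a line. The log2 fold changes were 0.41 (SE 0.099) in HuH-28, 0.72 in SSP-25 and 0.45 in RBE, and 0.53 on average (adjusted p = 3.13e-05, limma). Without the second control siRNA library of HuH-28, the value there was 0.35 and missed the threshold (adjusted p = 0.0704, limma).

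The balance of cytosolic and mitochondrial kinase can be read as a ratio within each library, whose size carries the same uncertainty as the sum. The signal of CKB over the sum of CKMT1A and CKMT1B was 3.12 and 3.11 with LKB1 siRNA and 7.47 and 6.55 with control siRNA in HuH-28. It was 0.209 and 0.156 with LKB1 siRNA and 0.462 and 0.346 with control siRNA in RBE, and 6.82 and 8.67 with LKB1 siRNA and 21.4 and 21.6 with control siRNA in SSP-25. The ratio was thus lower in both knockdown libraries of every line, and RBE was the line in which the mitochondrial transcripts exceeded CKB under either siRNA.

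Creatine synthesis begins with GATM, the mitochondrial enzyme that makes guanidinoacetate from arginine and glycine, and ends with GAMT, which methylates it. GATM lies on the reverse strand of chromosome 15 (45361124 to 45402327) and GAMT on the reverse strand of chromosome 19 (1397026 to 1401570). GAMT was at 115 and 93.5 with LKB1 siRNA and 68.2 and 65.5 with control siRNA in HuH-28. It was at 591 and 613 with LKB1 siRNA and 473 and 417 with control siRNA in RBE, and at 79.1 and 70.0 with LKB1 siRNA and 58.7 and 60.3 with control siRNA in SSP-25. GAMT therefore rose in every line without overlap, with log2 fold changes of 0.63 in HuH-28, 0.32 in SSP-25 and 0.44 in RBE (SE 0.11 each) and a mean of 0.46 (adjusted p = 0.00014, limma). The call in SSP-25 held under 17 of 24 alternatives, and that in RBE was lost without the second LKB1 siRNA library (adjusted p = 0.0584) or the second control siRNA library (adjusted p = 0.0778, limma).

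GATM did not pass the test in any line, although in RBE this depended on the settings. Its signal was 3.03 and 1.95 with LKB1 siRNA and 1.97 and 1.51 with control siRNA in HuH-28, and 17.7 and 18.9 with LKB1 siRNA and 12.6 and 24.0 with control siRNA in SSP-25, with overlapping libraries in both. In RBE it was 170 and 166 with LKB1 siRNA and 107 and 101 with control siRNA, which do not overlap. The log2 fold changes were 0.40 (95% interval -0.23 to 1.03) in HuH-28, 0.07 (-0.56 to 0.70) in SSP-25 and 0.70 (0.062 to 1.33) in RBE, with adjusted p of 0.337, 0.89 and 0.0769 in the same order (limma). GATM in RBE passed under 5 of 24 alternatives, among them each line fitted alone (adjusted p = 0.000172) and a pseudocount of 10 (adjusted p = 0.00616, limma). Without the second control siRNA library of SSP-25 the average was 0.54 and passed (adjusted p = 0.00751, limma).

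**Figure D2:**
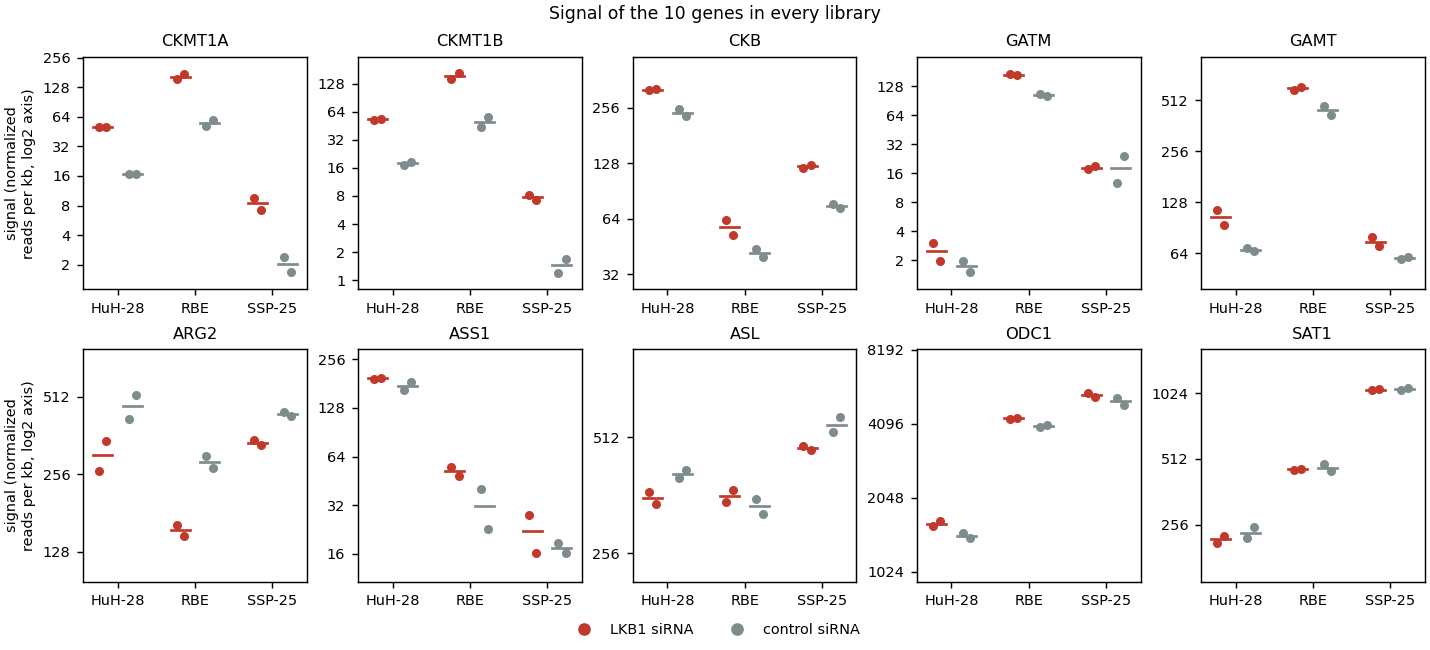
Signal of each of the 10 genes (normalized reads per kb, log2 axis, each panel with its own range) by line, where points are single libraries, bars are means of 2 libraries, and LKB1 siRNA (red) stands left of control siRNA (grey). CKMT1A and CKMT1B show the widest gaps, CKB and GAMT are higher and ARG2 is lower with LKB1 siRNA in each line without overlap, and the points of SAT1 overlap in every line.

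ARG2, the mitochondrial arginase that splits arginine into urea and ornithine, fell with LKB1 siRNA in every line. It lies on the forward strand of chromosome 14 between 67619798 and 67651720. Its signal was 263 and 346 with LKB1 siRNA and 421 and 521 with control siRNA in HuH-28. In RBE it was 163 and 147 with LKB1 siRNA and 301 and 271 with control siRNA, and in SSP-25 348 and 331 with LKB1 siRNA and 448 and 431 with control siRNA. No libraries overlapped within a line. The log2 fold changes were -0.63 in HuH-28, -0.37 in SSP-25 and -0.88 in RBE (SE 0.13 each), and -0.63 on average (adjusted p = 7.11e-05, limma). The call in SSP-25 was at the threshold (adjusted p = 0.0466, limma) and held under 11 of 24 alternatives. That in HuH-28 held under 23 of 24, and was lost with each line fitted alone (adjusted p = 0.0535, limma).

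The last 4646 bases of the ARG2 gene overlap VTI1B, a gene for a vesicle SNARE that lies on the reverse strand from 67647075 to 67674831. Of the 40-base stretches of the ARG2 transcript, 41.4% occur in VTI1B transcripts on the opposite strand, and the library kit named in the labels is not stated to mark strand, so reads of the genes cannot be told apart there. VTI1B also fell in every line, with log2 fold changes of -0.62 in HuH-28, -0.84 in SSP-25 and -1.40 in RBE and an average of -0.95 (adjusted p = 2.32e-06, limma). Its signal was 792 and 975 with LKB1 siRNA and 1199 and 1520 with control siRNA in HuH-28, 415 and 359 with LKB1 siRNA and 1051 and 992 with control siRNA in RBE, and 864 and 811 with LKB1 siRNA and 1469 and 1521 with control siRNA in SSP-25. VTI1B was thus above ARG2 in every library, and its part in the fall of ARG2 was not tested. It was named after its values were seen.

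**Figure D3:**
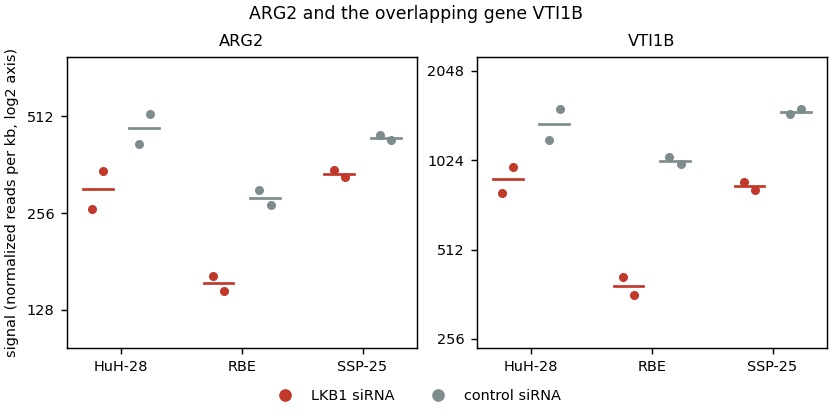
Signal of ARG2 (left) and of VTI1B, which overlaps its end on the opposite strand (right), by line, as normalized reads per kb on log2 axes, with points for libraries and bars for means of 2. In each line both genes are lower with LKB1 siRNA (red) than with control siRNA (grey), and the gap of VTI1B is widest in RBE.

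ASS1 joins citrulline and aspartate into argininosuccinate, and ASL splits that into arginine and fumarate. ASS1 lies on the forward strand of chromosome 9 (130444929 to 130501274) and shares 18.4% of its 40-base stretches with 15 other annotated genes, several of them ASS1 pseudogenes. ASL lies on the forward strand of chromosome 7 (66075798 to 66093558) and shares 24.9% with an overlapping gene on the same strand. Reads from these stretches cannot be assigned to 1 gene.

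ASS1 had a signal of 194 and 196 with LKB1 siRNA and 165 and 186 with control siRNA in HuH-28, 54.9 and 48.8 with LKB1 siRNA and 40.1 and 22.8 with control siRNA in RBE, and 27.9 and 16.3 with LKB1 siRNA and 18.7 and 16.2 with control siRNA in SSP-25. The libraries overlapped in SSP-25 alone. The log2 fold changes in the same order of lines were 0.16, 0.76 and 0.29 (SE 0.28 each), and that in RBE reached the threshold (adjusted p = 0.0499, limma). That call held under 11 of 24 alternatives. It was lost without the second control siRNA library of RBE, where the value was 0.37 (adjusted p = 0.356), and without the first (adjusted p = 0.188) or the second LKB1 siRNA library of RBE (adjusted p = 0.108, limma). On average ASS1 was at 0.40 and did not pass (adjusted p = 0.0575, limma).

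ASL was at 368 and 344 with LKB1 siRNA and 402 and 421 with control siRNA in HuH-28, and at 484 and 475 with LKB1 siRNA and 527 and 576 with control siRNA in SSP-25. In RBE it was at 347 and 372 with LKB1 siRNA and 355 and 324 with control siRNA, which overlap. It fell slightly in HuH-28 (-0.21) and SSP-25 (-0.20) and was at 0.08 in RBE on the log2 scale (SE 0.069 each). The calls were close to the threshold (adjusted p = 0.0449 in HuH-28 and 0.0416 in SSP-25, limma) and held under 11 and 17 of 24 alternatives. The average of -0.11 passed (adjusted p = 0.0435, limma) in the fit but held under only 12 of 26 alternatives.

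ODC1 makes putrescine from ornithine and is the entry to polyamine synthesis, and SAT1 acetylates spermidine and spermine for export or breakdown. ODC1 lies on the reverse strand of chromosome 2 (10439968 to 10448504) and SAT1 on the forward strand of chromosome X (23783173 to 23786226). ODC1 was at 1564 and 1645 with LKB1 siRNA and 1471 and 1400 with control siRNA in HuH-28, at 4283 and 4313 with LKB1 siRNA and 3952 and 4045 with control siRNA in RBE, and at 5465 and 5252 with LKB1 siRNA and 5194 and 4892 with control siRNA in SSP-25. Libraries did not overlap in any line, but the difference was small, with log2 fold changes in the same order of lines of 0.16, 0.10 and 0.09 (SE 0.053 each). It passed in HuH-28 (adjusted p = 0.0463, limma), where the call held under 10 of 24 alternatives, and on average at 0.12 (adjusted p = 0.00895, limma).

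SAT1 did not pass in any line, and its libraries overlapped in each. Its signal was 210 and 227 with LKB1 siRNA and 222 and 248 with control siRNA in HuH-28, 457 and 460 with LKB1 siRNA and 482 and 448 with control siRNA in RBE, and 1056 and 1065 with LKB1 siRNA and 1056 and 1081 with control siRNA in SSP-25. The average log2 fold change was -0.05 with a 95% interval of -0.13 to 0.04 (adjusted p = 0.35, limma). The interval leaves room for a change of the size seen for ODC1 in the opposite direction, and for none as large as that of CKB.

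**Figure D4:**
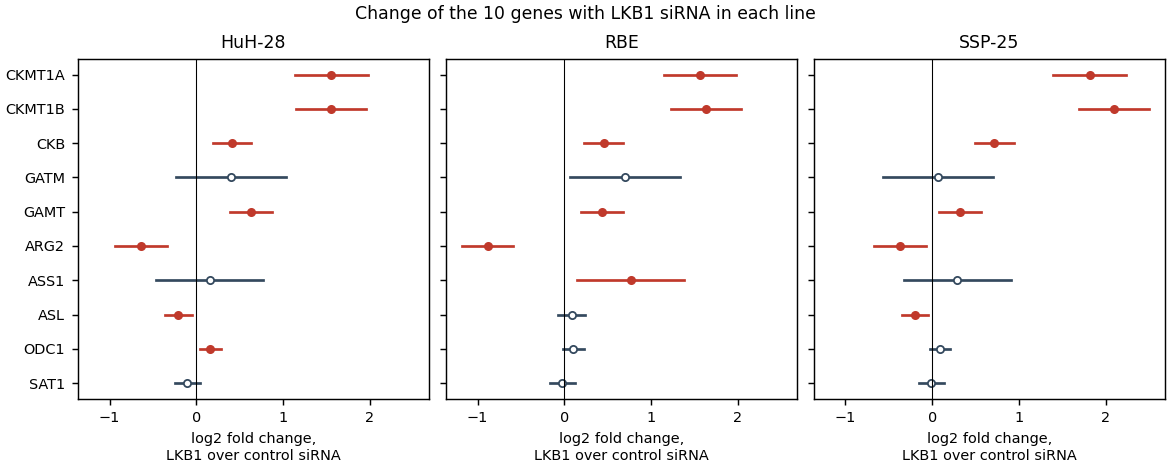
Log2 fold change of LKB1 siRNA over control siRNA for the 10 genes in each line (x axis), as points with 95% intervals from limma; filled red points passed an adjusted p of 0.05 and open points did not. CKMT1A and CKMT1B lie between 1.55 and 2.09, and every other point lies between -0.88 and 0.76.

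Counted together, 7 of the 10 genes passed on average over the lines, 5 higher and 2 lower, where 52.4% of all genes tested passed. On average 27.3% of all genes were called higher and 25.2% lower. In HuH-28 7 genes passed (29.7% of all genes), 5 of them higher (14.3%) and 2 lower (15.5%). In RBE 6 passed (40.6% of all genes), 5 of them higher (22.1%) and 1 lower (18.6%), and in SSP-25 6 passed (42.2% of all genes), 4 of them higher (21.1%) and 2 lower (21.1%). A call at this threshold was thus common among all genes. CKMT1A and CKMT1B share most of their 40-base stretches, so they are close to 1 measurement in each count. The 10 genes were also chosen with earlier results of these data known, and the paper lists both copies among its changed genes. These counts are therefore a description and not a test of the set. Beyond a log2 fold change of 1, CKMT1A and CKMT1B were the 2 genes that passed in each line and on average, where 2.56% of all genes passed upward in HuH-28, 5.55% in RBE, 6.11% in SSP-25 and 3.13% on average. CKMT1A, CKMT1B, CKB and GAMT passed upward in every line (4 of 10, with 6.94% of all genes), and ARG2 passed downward in every line (1 of 10, with 7.44%). No libraries of different siRNAs overlapped for 8 of the 10 genes in HuH-28 (57.1% of all genes), 7 in SSP-25 (73.9%) and 8 in RBE (72.3%). Adding ODC1 to those above, 5 genes were higher without overlap in every line (13.6% of all genes), and ARG2 was the 1 gene lower without overlap (13.9%). The median log2 fold change of the 10 was 0.28 in HuH-28, 0.44 in RBE, 0.19 in SSP-25 and 0.40 on average, beside 0.01, 0.01, 0.02 and 0.03 over all genes tested.

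With 2 libraries against 2, an exact test within a line cannot go below 0.33. Over the lines together, a two-sided exact permutation of the siRNA labels within lines gave p = 0.0093, the smallest it can give, for CKMT1A, CKMT1B, CKB, GAMT, ARG2 and ODC1. It gave 0.037 for ASS1, 0.074 for GATM, 0.11 for ASL and 0.29 for SAT1 by the same exact permutation.

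The size of the change was then compared between lines. Of the 10 genes, 0 passed limma's F test of the difference between the within-line changes at an adjusted p of 0.05, where 28.2% of all genes did, and 1, ASL, had an unadjusted p under 0.05 (adjusted p = 0.0669, limma). ARG2, whose fall was between -0.37 and -0.88, had an adjusted p of 0.143 in this F test. It passed without the first LKB1 siRNA library of HuH-28 (adjusted p = 0.0477) and without the second (adjusted p = 0.0488, limma).

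The levels under control siRNA were also compared between the lines. All 10 genes differed between the lines by limma's F test, but so did 90.5% of all genes, so such a difference was not particular to the 10. GATM had the widest range of the 10, with 107 and 101 in RBE against 1.97 and 1.51 in HuH-28, a log2 difference of 5.55, and with 12.6 and 24.0 in SSP-25. CKMT1B was next, with 1.20 and 1.69 in SSP-25 against 44.0 and 55.7 in RBE (log2 difference -4.70), followed by CKMT1A (-4.46). RBE was thus the line with the most transcript of the mitochondrial kinase and of both enzymes of creatine synthesis.

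GAMT was 2.72 higher on the log2 scale in RBE than in HuH-28, and its values in SSP-25 (58.7 and 60.3) and HuH-28 (68.2 and 65.5) gave a difference that did not pass (-0.17, 95% interval -0.41 to 0.07). The cytosolic kinase ran in another order, since CKB was lower in RBE than in HuH-28 by a log2 difference of -2.52 and higher in SSP-25 than in RBE by 0.84. ASS1 was lower in RBE (-2.51) and in SSP-25 (-3.29) than in HuH-28. ARG2 was lower in RBE than in HuH-28 (-0.71), and its difference between SSP-25 and HuH-28 did not pass (-0.09, 95% interval -0.39 to 0.21). ODC1 was higher in RBE (1.48) and SSP-25 (1.81) than in HuH-28, and SAT1 was likewise higher in RBE (0.98) and SSP-25 (2.18). ASL was between -0.28 for RBE minus HuH-28 and 0.70 for SSP-25 minus RBE. All 10 genes passed for RBE minus HuH-28 (77.3% of all genes) and for SSP-25 minus RBE (73.1%), and 8 passed for SSP-25 minus HuH-28 (74.8%), without GAMT and ARG2.

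Within a line, ODC1 had the highest signal of the 10 under control siRNA in all 3 lines, at 5043 ± 213 in SSP-25, 3999 ± 65.8 in RBE and 1435 ± 50.4 in HuH-28 (SD, n = 2 each). In HuH-28 the order went on with ARG2 and ASL, whose libraries overlapped, then CKB and SAT1, which also overlapped, then ASS1, GAMT, CKMT1B, CKMT1A and GATM. In RBE it went on with SAT1 and GAMT, which overlapped, then ASL, ARG2, GATM, CKMT1A and CKMT1B, which overlapped, and CKB and ASS1, which overlapped too. In SSP-25 it went on with SAT1, ASL, ARG2, CKB and GAMT, then GATM and ASS1, which overlapped, and CKMT1A and CKMT1B, which overlapped. The lowest gene was therefore GATM in HuH-28, ASS1 in RBE and CKMT1B in SSP-25.

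The other genes of these pathways were counted from 4 lists, of which 43 of 46 genes in the table were tested. On average over the lines 15 of the 43 were higher and 10 lower, beside 27.3% and 25.2% of all genes. By list, 1 of 2 creatine genes was higher and 0 lower, 4 of 13 genes of arginine, the urea cycle and nitric oxide were higher and 2 lower, 6 of 17 polyamine genes were higher and 5 lower, and 4 of 11 genes of ornithine and proline metabolism were higher and 3 lower. Within lines 13 were higher and 3 lower in HuH-28 (beside 14.3% and 15.5% of all genes), 13 higher and 8 lower in RBE (22.1% and 18.6%), and 13 higher and 10 lower in SSP-25 (21.1% and 21.1%). The creatine gene was SLC6A8, the creatine transporter of the cell surface, with an average log2 fold change of 0.48 (adjusted p = 0.000771, limma), called in RBE (0.65) and SSP-25 (0.57) and at 0.20 in HuH-28.

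Among the arginine genes, DDAH1, which degrades asymmetric dimethylarginine, an inhibitor of nitric oxide synthases, fell in every line. It had a signal of 1690 and 1554 with LKB1 siRNA and 3777 and 3484 with control siRNA in HuH-28, 274 and 248 with LKB1 siRNA and 781 and 810 with control siRNA in RBE, and 619 and 637 with LKB1 siRNA and 1243 and 1289 with control siRNA in SSP-25, a log2 fold change of -1.26 on average (adjusted p = 6.47e-09, limma). SLC7A2, a carrier of arginine and other cationic amino acids, rose by 1.88 in RBE, to 179 and 159 with LKB1 siRNA against 49.4 and 41.7 with control siRNA, and by 1.67 in SSP-25. Its value in HuH-28 was 0.52 (adjusted p = 0.0883, limma), at a signal of 3.84 or less. SLC25A15, the mitochondrial ornithine carrier, fell in every line, with log2 fold changes of -0.83 in HuH-28, -0.76 in SSP-25 and -0.42 in RBE.

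Of the polyamine genes, PAOX, which oxidizes acetylated polyamines, was higher by 1.06 on average (adjusted p = 0.00073, limma), and passed in RBE (1.14) and SSP-25 (1.19) and not in HuH-28 (0.85, adjusted p = 0.0709, limma). SMOX, the oxidase of spermine, rose in every line, by 0.68 in HuH-28, 0.60 in SSP-25 and 0.51 in RBE. ATP13A3, a polyamine transporter, rose by 0.38 in HuH-28, 1.12 in SSP-25 and 0.67 in RBE, and EIF5A2, whose protein carries a residue modified from spermidine, by 0.30, 0.90 and 0.28 in the same order. In the proline list the collagen prolyl hydroxylase subunits P4HA1 and P4HA2 rose in every line, by 0.44 and 0.57 on average. ALDH18A1, which makes the precursor of proline and ornithine from glutamate, fell by 0.20 on average. Its log2 fold changes were -0.18 in HuH-28, -0.39 in SSP-25 and -0.02 in RBE, where it did not pass (adjusted p = 0.841, limma).

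**Figure D5:**
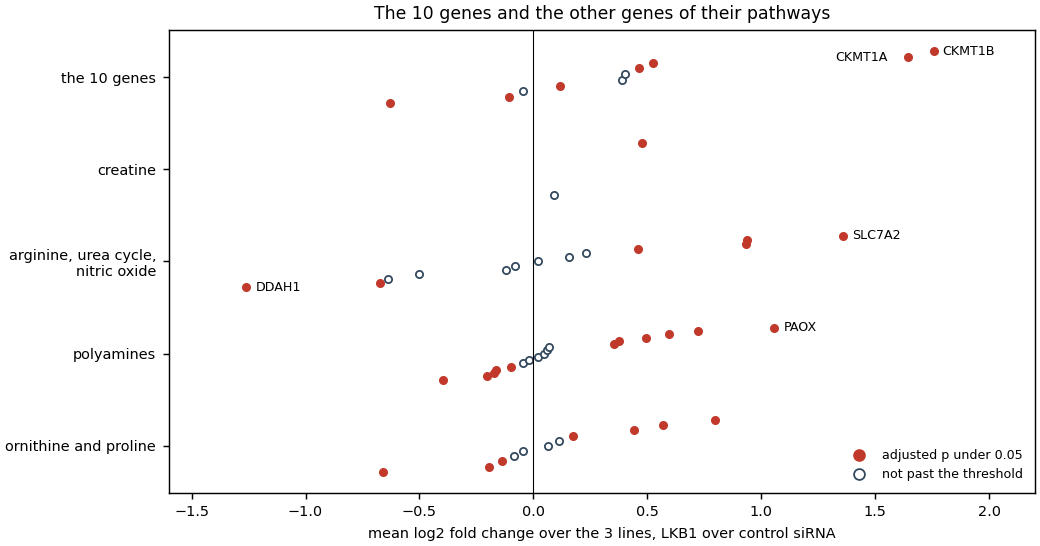
Mean log2 fold change of LKB1 siRNA over control siRNA in the 3 lines (x axis) for the 10 genes and for the tested genes of the 4 lists, with 1 point per gene spread vertically for legibility; filled red points passed an adjusted p of 0.05, and genes beyond 1 are named. CKMT1A and CKMT1B lie furthest to the right, followed by SLC7A2 (1.36) and PAOX (1.06), and DDAH1 (-1.26) lies furthest to the left.

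The pattern of the mitochondrial pair over the 12 libraries was compared with that of 13769 other genes whose signal averaged 5 or more, by Pearson's correlation of log2 values with the sum of CKMT1A and CKMT1B. The 5 most like it were ELOVL7 (r = 0.9945), GLI1 (0.9902), FECH (0.988), PDPR (0.9879) and DDIT4 (0.9874). After the mean of each line was removed, r was between 0.9529 and 0.9881 for these genes. The libraries share lines and siRNAs, so these values are a description. ELOVL7, an elongase of very long fatty acids, was at 69.6 and 60.3 with LKB1 siRNA and 21.6 and 22.7 with control siRNA in HuH-28. It was at 218 and 177 with LKB1 siRNA and 66.5 and 67.7 with control siRNA in RBE, and at 16.9 and 13.7 with LKB1 siRNA and 4.08 and 4.15 with control siRNA in SSP-25.

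The longest annotated 3′ UTR of each gene was searched on its sense strand for short words that earlier results of these data had tied to the changes. The 3′ UTRs of the 10 genes were 133 to 985 bases long, beside a median of 1231 bases over 14927 tested genes. The word GCAGTAC was in none of the 10 and in 4.98% of all genes, with a median average log2 fold change of 0.27 for genes that hold it and 0.02 for those that do not. A word that overlaps it in all but its last letter, CAGTACA, was in none of the 10 and in 8.68% of all genes (medians 0.13 and 0.02). The unrelated word GAAGGAA was in none of the 10 and in 20.9% of all genes (medians -0.01 and 0.04). The words came from these same data, and the 3′ UTRs of the 10 are few and short. The medians and the absences are therefore a description and not a test. Of VTI1B, DDAH1, SLC7A2 and PAOX, the genes searched beside the 10 and the targeted STK11, VTI1B and DDAH1 hold GAAGGAA and SLC7A2 holds GCAGTAC. The 3′ UTRs of VTI1B, DDAH1 and SLC7A2 are 4310, 2971 and 5427 bases long, all above the median of 1231. A longer sequence has more places for a word, so these matches do not tie the words to the changes of these genes.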

How the data were processed

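Each value in the table that the authors deposited is a signal, the normalized reads per kilobase of a gene in a library, on a scale common to the libraries, and not a count. The methods describe single reads of 40 bases, NextGENe and an older human genome build. The submitters' processing notes name TopHat 1.2.0, hg19 and edgeR, and the sources used here do not say which pipeline the table comes from. Of 18815 rows, 23 repeated ones were left out, and values under 1e-06 were taken as 0. Log2(signal + 0.5) was fitted with limma 3.58.1 in R 4.3.3 using 1 mean per group of line and siRNA (6 residual degrees of freedom), eBayes with a trend, and Benjamini-Hochberg adjustment over the 16146 genes that reached a signal of 1 in 2 or more libraries. The fit was tested on simulated data. The design assumed RPKM and was kept for this unit. Depth is unknown, so no counting intervals or floors are given.

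The 10 genes, the lists and the 3 words were chosen with earlier results of these data known. All 10 genes were described, together with list genes beyond 1 on the log2 scale on average or with the 3 smallest p of their list. Genes named outside this rule are said to be so. Transcripts and positions are from GENCODE 29 (GRCh38), matched by symbol for all 10 genes with Python 3.11.15 and Biopython 1.88, and the table itself has no coordinates. Alternatives were pseudocounts of 0.1, 1 and 10, 2 other filters, 2 other scalings, a trendless eBayes, a replicate block, lines fitted singly, the copies summed, and leaving out each library or line.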

Additional observations from a re-analysis of the deposited data

Results flagged for a closer look

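The fall of STK11, the targeted gene, differed in size between the lines (limma's F test over 3 lines with 2 libraries a group, adjusted p = 0.0013). With LKB1 siRNA it fell furthest in SSP-25, at a log2 fold change of -2.77, against -1.68 in RBE and -1.59 in HuH-28. Of the 10 genes of creatine and arginine metabolism, 0 passed this test at an adjusted p of 0.05.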

How the results depend on the processing

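Over 976 alternative values of single genes, 874 kept their side of the threshold (6 of these changed sign with neither value past it), 86 lost a call, 16 gained one and 0 reversed. CKMT1A and CKMT1B passed in every line under every alternative run. Calls on average over the lines numbered 6 to 7 when single libraries were left out and 6 to 9 otherwise, against 7. In HuH-28 they numbered 4 with each line fitted alone and 4 to 7 without single libraries (4 without the second control siRNA library), against 7. In RBE they numbered 4 to 6 without single libraries and 5 to 7 otherwise, against 6. In SSP-25 they numbered 3 with quantile normalization, 3 without a trend and 3 to 6 without single libraries (3 without the first LKB1 siRNA or the second control siRNA library), against 6. All 10 levels differed between lines without any single library, and 9 of 9 with CKMT1A and CKMT1B summed. The change differed between lines for 2 genes, CKMT1A and CKMT1B, with a pseudocount of 10, and for 0 to 1 (ARG2) without single libraries. STK11 was between -2.06 and -1.97 without single libraries.

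Same-numbered libraries of a line deviated together in HuH-28 (r = 0.431 over 12228 genes) and not in RBE (0.0021) or SSP-25 (0.032), so the numbers were not taken to pair the libraries. With the replicate block within each line, 1 gene, ARG2, differed in its change between lines (adjusted p = 0.00386, limma). GATM in RBE (0.0395) and on average (0.0374) and ASS1 on average (0.0186) then passed, and ASL in HuH-28 (0.064), in SSP-25 (0.062) and on average (0.0658) did not (adjusted p, limma). This block gave 8 calls on average over the lines, with 7 for RBE, 6 for HuH-28 and 5 for SSP-25. Depth is unknown, so the counting error of low values such as CKMT1A in SSP-25 or GATM in HuH-28 could not be estimated.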

Other observations

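Some genes of the lists were near 0 in 1 line, which was seen after the values were known. OAT, which links ornithine to glutamate semialdehyde and proline, had a signal of 0.0073 to 0.473 in the 4 libraries of RBE and of 1175 or more in each library of the other lines. MTAP, which recovers methylthioadenosine left over from polyamine synthesis, was at 0 to 0.202 in RBE and at 154 or more in the others. PRODH and PRODH2 showed the opposite. PRODH was at 69.9 and 68.1 with LKB1 siRNA and 49.0 and 61.2 with control siRNA in RBE, and at 4.23 or less elsewhere. PRODH2 was at 9.73 and 6.78 with LKB1 siRNA and 23.7 and 27.6 with control siRNA in RBE, and at 0.433 or less elsewhere.

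CPS1, the mitochondrial enzyme that starts the urea cycle, was higher with LKB1 siRNA in all 3 lines, also named after its values were seen. It was at 57.2 and 55.6 with LKB1 siRNA and 31.8 and 35.4 with control siRNA in HuH-28, at 46.0 and 43.1 with LKB1 siRNA and 21.0 and 22.9 with control siRNA in RBE, and at 3.92 and 2.79 with LKB1 siRNA and 1.53 and 1.14 with control siRNA in SSP-25. Its log2 fold changes were 0.74, 1.01 and 1.06, with an average of 0.94 (adjusted p = 6.1e-05, limma). SRM, which makes spermidine and was likewise named after its values were seen, was also higher in each line, by 0.48, 0.32 and 0.26. The polyamine list did not move in 1 direction, with 6 genes higher and 5 lower on average. The lower ones, also named after their values were seen, were OAZ3 (-0.40), SMS (-0.20), AMD1 (-0.17), AZIN1 (-0.16) and OAZ1 (-0.10).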
